A study of Mus musculus with 12 samples.

Results

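Retinas from the untreated eyes of 18-month-old mice were compared with retinas from the untreated eyes of 3-month-old mice, with 2 RNA libraries at each age (18mo control and 3mo control). Every feature whose mean over the 4 libraries reached 0.5 FPKM was compared, 13461 of the 25124 features listed. FPKM is the number of fragments relative to transcript length and to the mapped total of the library, so that a level can be set beside that of another gene. Of these features 12298 had a coding (NM_) and 1163 a noncoding (NR_) transcript. Mir6905 lay just inside the minimum with a mean of 0.5 FPKM and Fhad1 just outside it with 0.49975 FPKM.

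All mice were wild-type C57BL/6J. In each animal the pressure of the other eye had been raised to 30 mmHg for 1 h, and both retinas were collected 2 days later, so both control groups share a treated fellow eye. The study asks how natural ageing changes the transcriptome of the retina. Its treated retinas of the same ages (3mo IOP and 18mo IOP, where IOP is intraocular pressure) and the untreated retinas of mice, 3 months old at the first treatment, whose other eye was treated 4 times (4xIOP control) are used below as further libraries, with 2 in each group. The labels used here do not give sex, litter, the hour of collection or which library came from which animal. The study calls the 2 libraries of a group biological replicates. The p-values rest on a spread within groups that is pooled over 8 libraries, the treated retinas included. The fit takes these libraries as independent.

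The retina is the light-sensing neural layer of the eye. Rod and cone photoreceptors pass their signal through bipolar cells to retinal ganglion cells, whose axons form the optic nerve, while amacrine and horizontal cells shape the signal on the way. Müller glia span the tissue and recycle glutamate, microglia are its resident immune cells, and the pigment epithelium is a separate layer behind the photoreceptors. Immediate early genes encode transcription factors and signalling inhibitors that cells switch on without new protein synthesis after stimulation or stress. The ageing retina is known for glial activation and complement expression. In bulk RNA, fewer cells of a type and less RNA per cell cannot be told apart.

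The 4 control libraries held 41526194 to 47755929 mapped tags, of which 27397849 to 33189888 were counted in exons, so 3 reads on a transcript of 2000 bases correspond to 0.0314 to 0.0361 FPKM. The libraries differed in how level depended on transcript length. The median level of transcripts under 1000 bases was 3.25 and 9.71 times that of transcripts of at least 4000 bases in 3mo control 1 and 3mo control 2, and 1.70 and 1.62 times in the 18mo controls. Among transcripts of 500 to under 1000 bases 50.5% fell and 2.79% rose at 18mo, whereas among those of at least 6000 bases 1.04% fell and 19.1% rose. The 3mo controls also differed more from each other than the 18mo controls did, with 957 features (7.11%) at least 2-fold apart against 186 (1.38%). That ratio of short to long transcripts was 7.405 and 5.78 in the 3mo IOP and 1.87 and 2.04 in the 18mo IOP retinas, so length and age move together in the table that holds both ages. In the younger 4xIOP controls, tabulated separately, it was 2.12 and 1.998, closer to that of the 18mo controls. Each difference is given as deposited ("as given") and again after the trend of each library with transcript length was taken out. Taking out length did not take out GC content. Across 13388 genes the Spearman correlation of log2 fold change with GC content was 0.38 as given and 0.52 with the length trend removed.

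**Figure D1:**
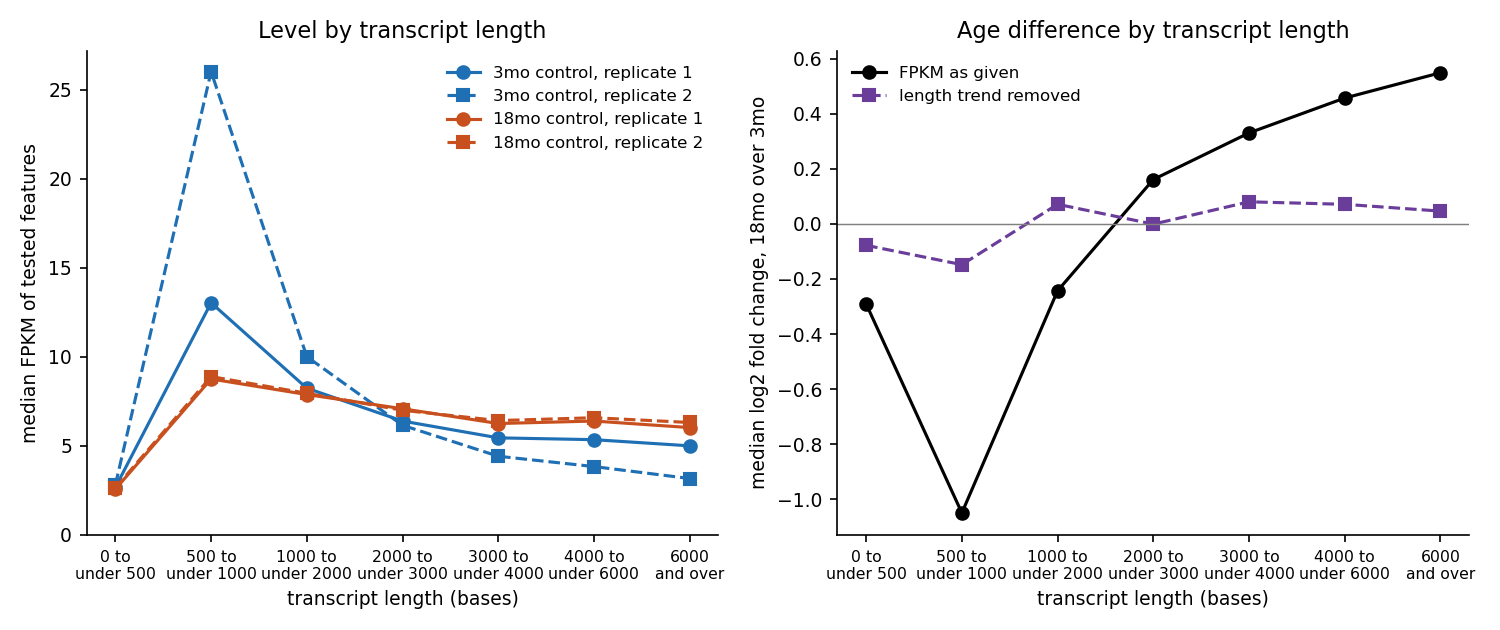
The left panel plots the median FPKM of the features compared, by transcript length in bases, for the 4 control libraries, and the right panel the median log2 fold change of 18mo control over 3mo control by length in both fits. The 3mo control 2 library stands at 26.0 FPKM for transcripts of 500 to under 1000 bases where the 18mo controls stand at 8.76 and 8.90 FPKM, and the median log2 fold change at that length moves from -1.05 as given to -0.15 with the length trend removed.

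A feature was called changed where limma gave an adjusted p (Benjamini-Hochberg) no higher than 0.05 and the log2 fold change was 1 or more in size. As given, 1574 features rose (11.7%) and 1594 fell (11.8%), together 23.5%. With the length trend removed 999 rose (7.42%) and 1203 fell (8.94%), together 16.4%, and 748 (5.56%) rose and 866 (6.43%) fell in both fits, together 12%. Taking out GC content as well as length left 668 higher (4.99%) and 645 lower (4.82%) of 13388, together 9.81%. The levels of the 2 ages did not overlap for 45.5% of features on the higher side and for 33.1% on the lower side, together 78.6%, so a lack of overlap alone is common here. With median-of-ratios size factors, which lower the median difference from 0.15 to 0.00476, 1054 features rose and 1949 fell as given, so that 35.1% of the called features were higher in place of 49.7%. Leaving out 3mo control 1, 3mo control 2, 18mo control 1 or 18mo control 2 gave 2614, 737, 1007 and 683 higher and 2095, 785, 867 and 638 lower features as given, and 1482, 600, 871 and 887 higher and 1649, 608, 1125 and 1025 lower with the length trend removed. Leave-one-out counts of gene lists below keep this order of libraries. The median log2 fold change over all features was 0.15 as given, 0.04 with the length trend removed and 0.01 with length and GC removed, and list medians are to be read against these.

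**Figure D2:**
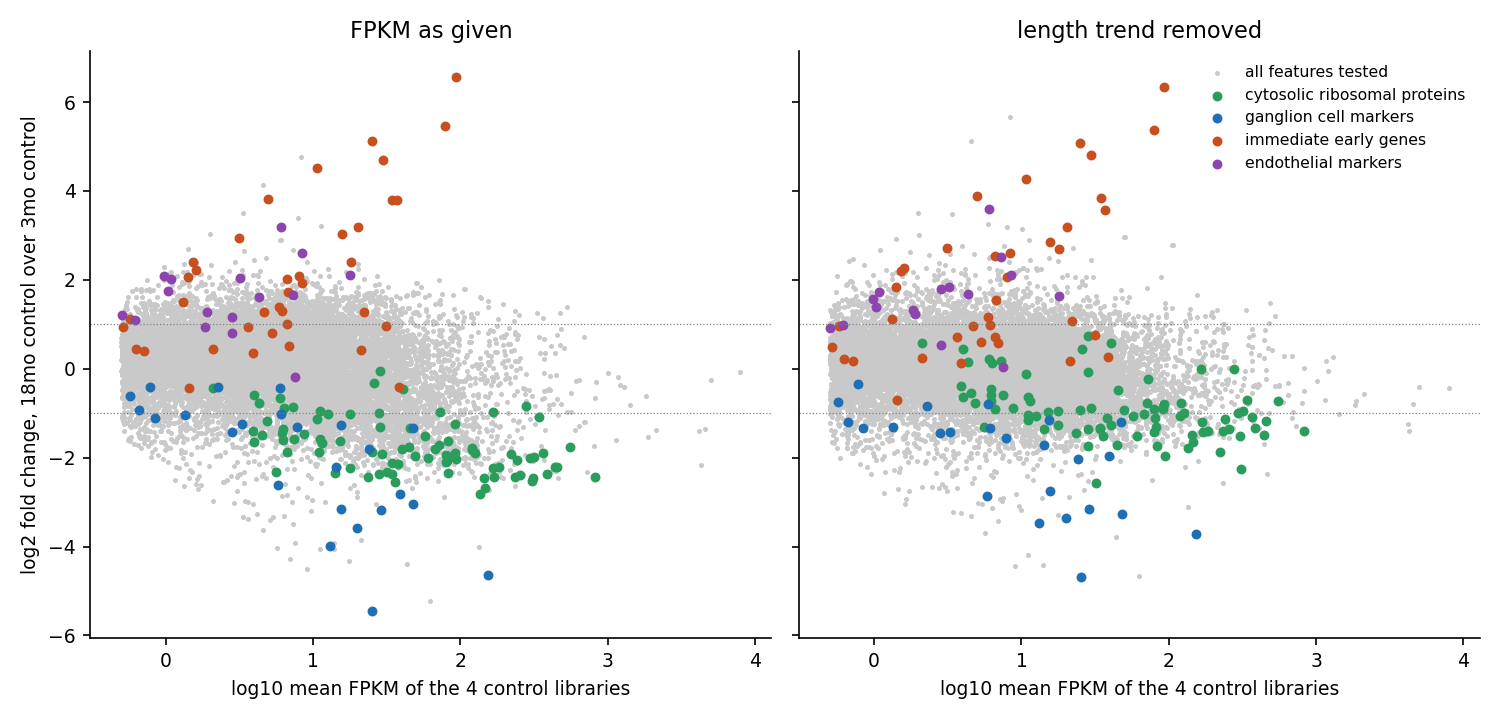
Each point is a feature, placed by the log10 of its mean FPKM over the 4 control libraries and by its log2 fold change of 18mo control over 3mo control, as given (left) and with the length trend removed (right), with dotted lines at a change of 1 either way. Immediate early genes reach 6.55 and ganglion cell markers reach -5.45 as given, and the cytosolic ribosomal protein genes move from a median of -1.86 to -0.997 between the panels.

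Immediate early genes were among the largest rises. Over all features 11.7% rose as given, 5.56% in both fits and 4.99% with length and GC removed. Of the 38 immediate early genes tested, 25 rose and 0 fell as given, 22 rose in both fits, and 20 rose with length and GC removed. Their median log2 fold change was 1.61 as given and 1.36 with the length trend removed. Their summed level was 164 and 173 FPKM in the 3mo controls and 1194 and 745 FPKM in the 18mo controls. Leave-one-out counts were 25, 22, 18 and 22 as given and 21, 19, 17 and 22 with the length trend removed. Both 18mo controls lay above both 3mo controls for 35 of the 38 genes, against 45.5% of all features. The genes tested that did not pass in either fit included Npas4 and Bdnf, which are also induced by neuronal activity.

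Egr1 (NM_007913, chromosome 18, 34861207 to 34864956), a zinc finger transcription factor, stood at 1.48 and 1.42 FPKM at 3mo and 209.8 and 159 FPKM at 18mo, a log2 fold change of 6.55 ± 0.32 (SE; adjusted p = 0.000411) as given and 6.34 ± 0.32 (adjusted p = 0.000372) with the length trend removed. Fos (NM_010234, chromosome 12, 85473890 to 85477274), a subunit of the AP-1 transcription factor, stood at 3.07 and 2.66 FPKM at 3mo and 207 and 104 FPKM at 18mo, a log2 fold change of 5.45 ± 0.51 (SE; adjusted p = 0.00255) as given and 5.37 ± 0.48 (adjusted p = 0.00133) with the length trend removed. Its partner Jun (NM_010591, chromosome 4, 95049036 to 95052222) stood at 5.57 and 3.27 FPKM at 3mo and 89.5 and 49.4 FPKM at 18mo. In these genes and in most of the list 18mo control 1 was the higher of the 18mo libraries. Junb, another AP-1 subunit, rose from 4.195 and 3.73 to 88.3 and 42.2 FPKM, with log2 fold changes of 3.79 and 3.85 in the 2 fits. Fosb (NM_001347586, chromosome 7, 19302696 to 19310045) was at 0.577 and 0.190 FPKM at 3mo and 29.1 and 12.9 FPKM at 18mo, and Atf3, a stress-induced partner of AP-1 proteins, at 2.25 and 3.28 FPKM at 3mo and 14.5 and 11.9 FPKM at 18mo. Both rose in both fits, with log2 fold changes as given of 4.53 ± 0.51 (adjusted p = 0.00359) and 2.08 ± 0.34 (adjusted p = 0.0055).

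Other immediate early genes rose, among them inhibitors of signalling. Zfp36 (NM_011756, chromosome 7, 28376784 to 28379228), which binds AU-rich elements and shortens the life of cytokine mRNAs, stood at 2.05 and 1.25 FPKM at 3mo and 78.2 and 37.6 FPKM at 18mo, a log2 fold change of 4.697 ± 0.44 (SE; adjusted p = 0.00255) as given and 4.81 ± 0.44 (adjusted p = 0.00133) with the length trend removed. Dusp1, a phosphatase of mitogen-activated protein kinases, stood at 3.56 and 3.43 FPKM at 3mo and 46.6 and 27.7 FPKM at 18mo. Socs3 (NM_007707, chromosome 11, 117966087 to 117969366), a feedback inhibitor of JAK-STAT signalling on the gliosis list, stood at 0.956 and 0.801 FPKM at 3mo and 20.6 and 9.33 FPKM at 18mo. In each of them both 18mo controls lay far above the 3mo controls. The log2 fold changes of Dusp1 and Socs3 were 3.19 ± 0.34 (adjusted p = 0.00299) and 3.39 ± 0.36 (adjusted p = 0.00298) as given, and 3.19 and 3.18 with the length trend removed. Gadd45b and Gadd45g, growth arrest and DNA damage inducible genes, rose from 2.01 and 2.64 to 12.2 and 9.62 FPKM and from 2.65 and 3.51 to 17.5 and 9.75 FPKM. Krüppel-like factors rose as well, Klf2 from 0.213 and 0.231 to 9.21 and 10.2 FPKM and Klf4 from 0.301 and 0.372 to 5.72 and 6.18 FPKM. Nr4a1, a nuclear receptor induced by activity, stood at 3.895 and 2.27 FPKM at 3mo and 31.1 and 25.4 FPKM at 18mo, a log2 fold change of 3.04 ± 0.44 (SE; adjusted p = 0.00482) as given and 2.85 ± 0.43 (adjusted p = 0.00257) with the length trend removed. Calls were lost for Gadd45b without 18mo control 1 (adjusted p = 0.0501) as given.

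Ccn1 (NM_010516, chromosome 3, 145646971 to 145649985) encodes a matrix protein that is both an immediate early gene and a target of YAP and TEAD, and stood at 0.715 and 0.839 FPKM at 3mo and 72.4 and 26.5 FPKM at 18mo, a log2 fold change of 5.12 ± 0.7 (SE; adjusted p = 0.00469) as given and 5.07 ± 0.68 (adjusted p = 0.00194) with the length trend removed. Ccn2, a related target, stood at 2.39 and 3.27 FPKM at 3mo and 12.7 and 8.53 FPKM at 18mo. Of the 13 YAP and TEAD pathway genes tested 4 rose as given and 4 rose in both fits, among them Tead3, a DNA-binding partner of YAP, at 3.76 and 2.16 FPKM at 3mo and 11.7 and 12.02 FPKM at 18mo. Counts with each library left out were 8, 4, 4 and 4 as given and 4, 4, 4 and 4 with the length trend removed. The kinase Lats1, which restrains YAP, stood at 8.55 and 6.03 FPKM at 3mo and 14.2 and 12.7 FPKM at 18mo and its log2 fold change of 0.86 ± 0.21 did not reach the size required.

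Other libraries of the study can be set beside these. The summed level of the 38 immediate early genes was 306 and 232 FPKM in the 3mo IOP retinas, 1354 and 2679 FPKM in the 18mo IOP retinas and 167 and 182 FPKM in the 4xIOP controls, which were tabulated separately. Thus both 18mo groups lay above both 3mo groups and the 4xIOP controls in this sum. Fos stood at 6.66 and 2.77 FPKM in 3mo IOP, 231 and 547 FPKM in 18mo IOP and 11.1 and 12.4 FPKM in the 4xIOP controls. The treated retinas come from treated eyes of the same cohorts and may share animals with the control libraries, so that they are not counted as further animals. The 4xIOP controls also differ from both ages in sex-linked transcripts, with the Y-linked Eif2s3y at 20.7 and 27.6 FPKM against 0 in the 4 control libraries. The order in which the ages were collected and sequenced was not tested.

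The 120 bases before the RefSeq start of 5 of these genes are shown because a short motif named below was found there, out of 7 immediate early genes with large rises whose sequence was searched (build GRCm38.p6, strand of the gene). Capitals mark TGACG, part of the cyclic AMP response element, on either strand, and in Zfp36 a CArG box, the site known for serum response factor. The motifs were chosen after the sequences had been read.
Fos, chr12:85473770-85473889, plus strand: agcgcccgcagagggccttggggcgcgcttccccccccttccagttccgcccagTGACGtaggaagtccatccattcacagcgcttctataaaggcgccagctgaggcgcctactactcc
Fosb, chr7:19310046-19310165, minus strand: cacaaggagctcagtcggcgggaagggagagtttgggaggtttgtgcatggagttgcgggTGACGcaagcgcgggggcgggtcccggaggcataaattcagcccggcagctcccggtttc
Junb, chr8:84978749-84978868, minus strand: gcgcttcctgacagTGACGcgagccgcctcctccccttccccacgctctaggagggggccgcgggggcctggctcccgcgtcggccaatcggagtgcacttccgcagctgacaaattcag
Ccn1, chr3:145649986-145650105, minus strand: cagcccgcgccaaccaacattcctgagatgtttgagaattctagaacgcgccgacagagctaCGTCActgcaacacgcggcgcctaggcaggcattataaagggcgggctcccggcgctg
Zfp36, chr7:28379229-28379348, minus strand: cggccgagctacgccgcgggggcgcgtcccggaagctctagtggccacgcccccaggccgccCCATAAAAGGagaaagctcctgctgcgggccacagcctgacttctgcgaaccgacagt
TGACG began 66, 60 and 106 bases before the start of Fos, Fosb and Junb, and 58 bases before that of Ccn1, where it lies on the other strand as CGTCA. The CArG box of Zfp36 began 58 bases before its start. Jun and Klf2 held neither motif in these 120 bases. TGACG was found in the 120 bases of 7 of the 17 immediate early genes called in both fits whose promoter was searched. It was found in 12 of all 31 immediate early genes tested whose promoter was searched (38.71%). Among the 10412 features compared that were searched the share was 18.91%, and among all 27025 promoters searched 11.7%. Promoters on the chromosome that holds Egr1 were left out of the search and of these counts. The full element, TGACGTCA, was found in 0 of the 17 and in 2.22% of the features compared. The CArG box was found in 1 of the 17, in 3 of the 31 and in 0.729% of all promoters searched. A match is a description of these letters and not of binding.

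**Figure D3:**
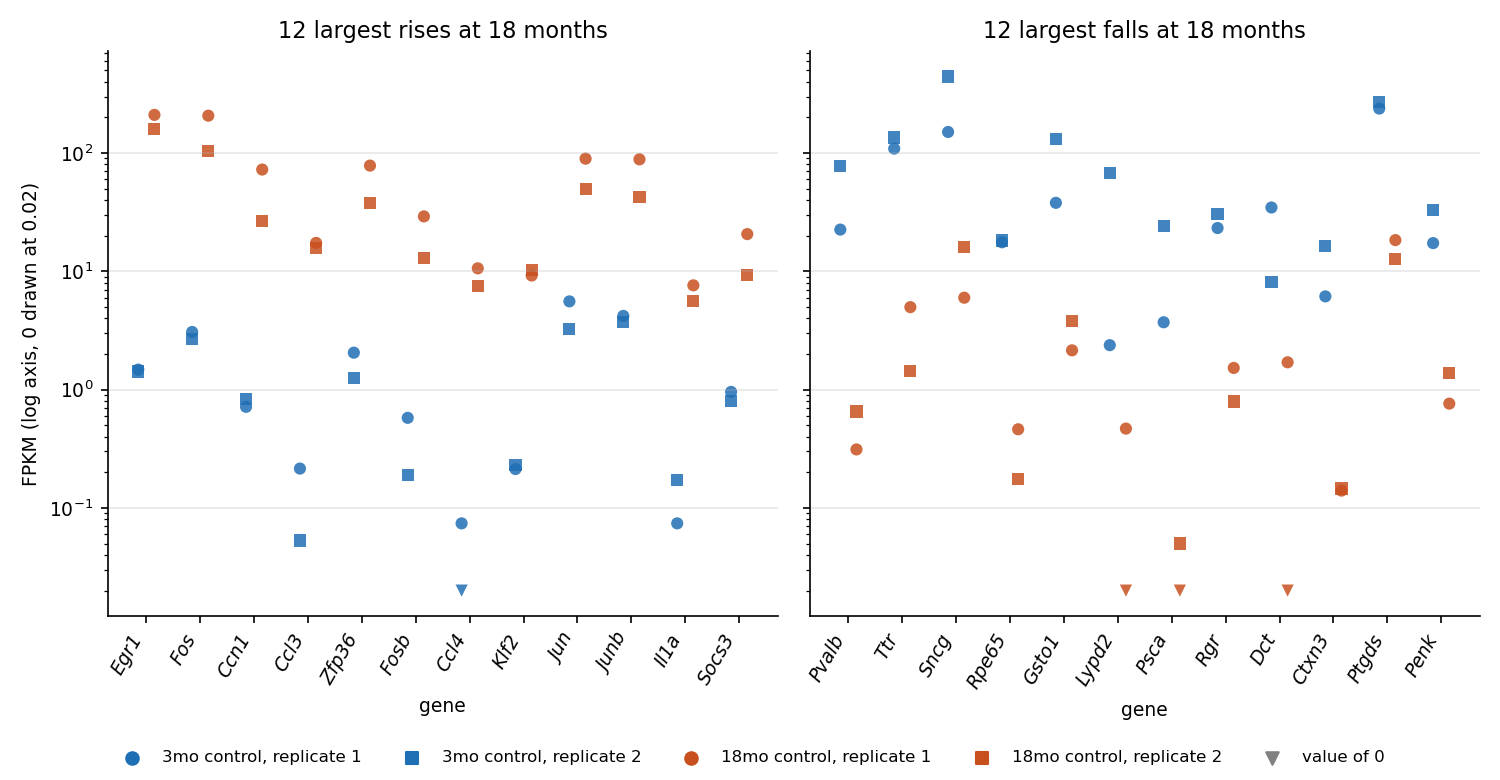
FPKM (log axis, values of 0 drawn at 0.02 as triangles) of the 12 genes with the largest rises and the 12 with the largest falls among coding features called in both fits, in each of the 4 control libraries. Egr1 stands at 1.48 and 1.42 FPKM against 209.8 and 159 FPKM, Rpe65 at 17.6 and 18.2 FPKM against 0.462 and 0.176 FPKM, and the ages do not overlap for any of the 24 genes, which the choice of genes required.

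Some chemokines and cytokines rose from low levels at 3mo. Ccl3 (NM_011337, chromosome 11, 83647843 to 83649378), a chemokine of activated microglia and macrophages, stood at 0.215 and 0.0530 FPKM at 3mo and 17.4 and 15.7 FPKM at 18mo, a log2 fold change of 4.76 ± 0.497 (SE; adjusted p = 0.00289) as given and 5.65 ± 0.55 (adjusted p = 0.00145) with the length trend removed. Its neighbour Ccl4 (NM_013652, chromosome 11, 83662584 to 83664683) had 2 and 0 reads at 3mo and 304 and 231 reads at 18mo, which made it at least 87.9-fold higher against a floor of 3 reads per library. Tnf, tumour necrosis factor, had 0 and 2 reads at 3mo and 204 and 202 reads at 18mo, at least 66.4-fold higher. For these genes the 18mo controls were alike and far above the 3mo controls. Il1a, an interleukin-1 ligand, stood at 0.0740 and 0.171 FPKM at 3mo and 7.604 and 5.64 FPKM at 18mo, a log2 fold change of 3.51 ± 0.39 (SE; adjusted p = 0.00361) as given and 3.49 ± 0.39 (adjusted p = 0.00156) with the length trend removed. In the 4xIOP controls Ccl3, Ccl4 and Tnf were each at 0 FPKM in both libraries.

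Of 23 NF-kB pathway genes and targets tested, 14 rose and 0 fell as given, 11 rose in both fits and 11 with length and GC removed, and the median log2 fold change was 1.23 as given and 1.03 with the length trend removed. Leaving out each library in turn gave 13, 12, 9 and 11 as given and 10, 8, 9 and 12 with the length trend removed. Beside Tnf and Il1a the genes that rose in both fits were the chemokines Cxcl2, Cxcl10 and Ccl2, the adhesion molecule Icam1, the growth factor Csf1, the NF-kB subunit Rela, its regulator Nfkbiz, and the transcription factors Cebpb and Cebpd. Sod2, the mitochondrial superoxide dismutase and an NF-kB target, stood at 20.9 and 23.3 FPKM at 3mo and 16.4 and 15.7 FPKM at 18mo with a log2 fold change of -0.45 ± 0.16, below the size required. When each library was left out in turn, the call was lost in 3 of the 4 cases for Cxcl2, 2 for Ccl2 and Cebpd and 1 for Cxcl10 and Nfkbiz as given (adjusted p up to 0.12). The loss came in 3 of the 4 cases for Nfkbiz, 2 for Cebpd and 1 for Cxcl2 and Rela with the length trend removed (adjusted p up to 0.103). With GC removed as well as length, Csf1 (log2 fold change 0.7) and Rela (adjusted p = 0.0819) were not called.

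**Figure D4:**
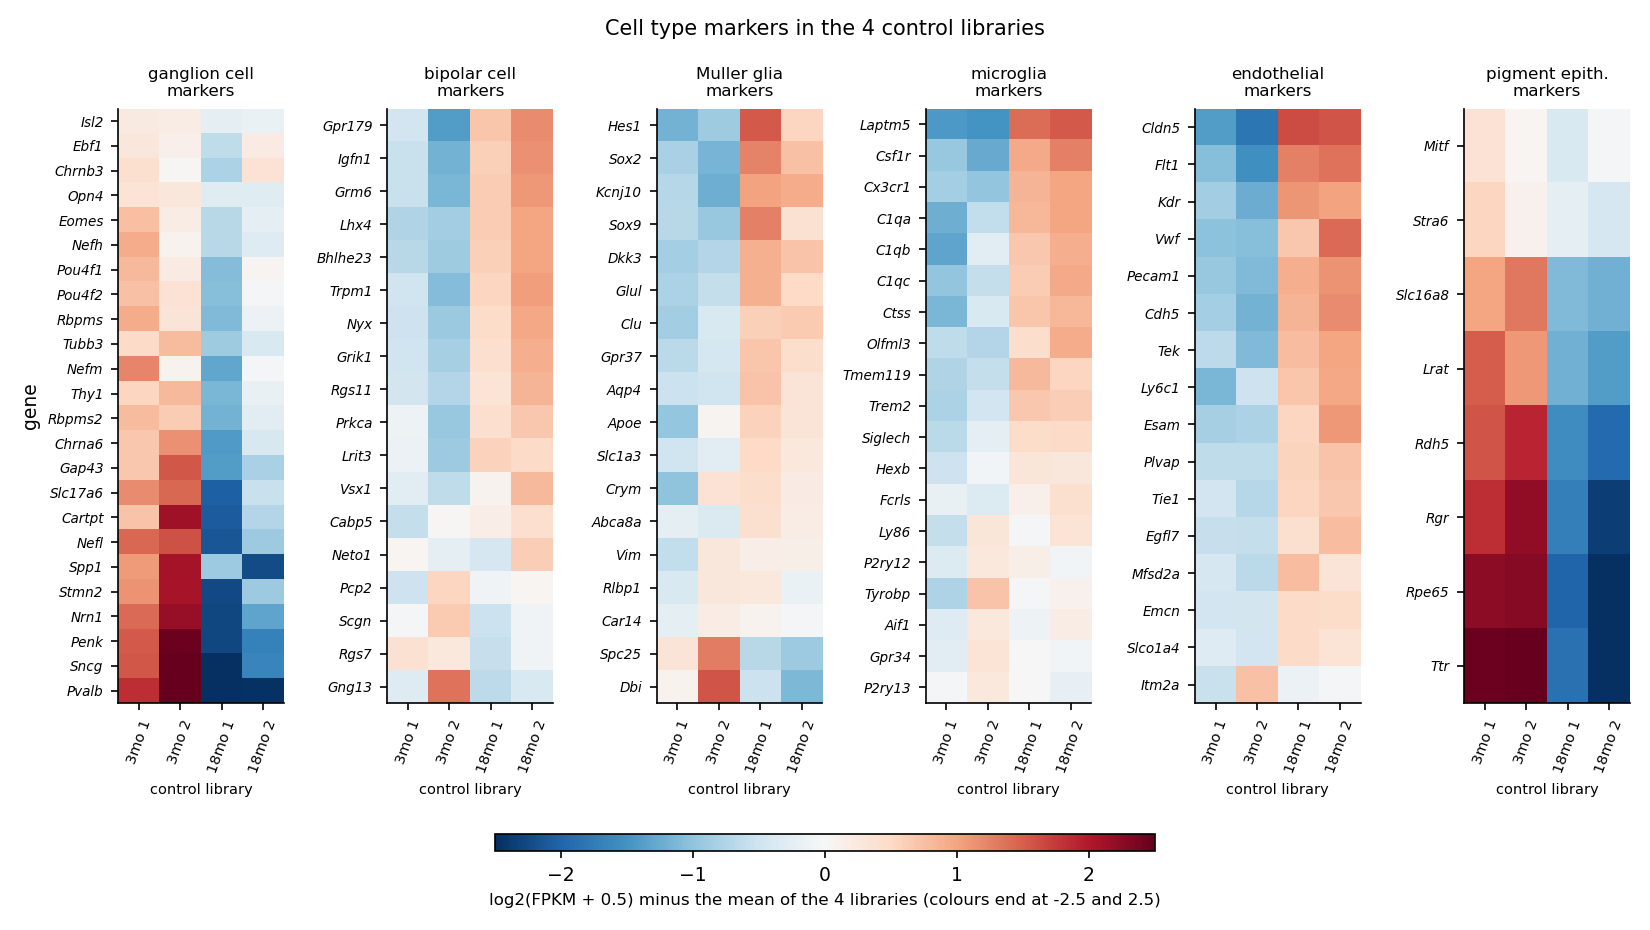
Each cell shows the log2(FPKM + 0.5) of a marker gene in a control library minus the mean of the 4 control libraries, for markers of 6 cell types, with colours ending at -2.5 and 2.5. Microglia and endothelial markers are mostly higher in both 18mo controls, while ganglion cell and pigment epithelium markers are lower there, and 18mo control 1 is lower than 18mo control 2 for most ganglion cell markers.

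Microglia markers rose in part. Of 19 tested, 9 rose and 0 fell as given, 9 rose in both fits and 11 with length and GC removed. Their median log2 fold change was 1.29 as given and 1.27 with the length trend removed, and their summed level was 58.7 and 98.3 FPKM at 3mo and 168 and 189 FPKM at 18mo. The leave-one-out counts were 5, 7, 5 and 2 as given and 9, 9, 9 and 8 with the length trend removed. Laptm5, a lysosomal membrane protein of blood-derived and microglial cells, stood at 0.340 and 0.313 FPKM at 3mo and 5.54 and 6.13 FPKM at 18mo, a log2 fold change of 2.94 ± 0.36 (SE; adjusted p = 0.00442) as given and 2.76 ± 0.34 (adjusted p = 0.0017) with the length trend removed. Csf1r, the receptor on which microglia depend, stood at 1.401 and 1.04 FPKM at 3mo and 6.63 and 8.29 FPKM at 18mo, and Ctss, cathepsin S, at 9.83 and 16.9 FPKM at 3mo and 36.4 and 40.1 FPKM at 18mo. Other microglia markers, such as Tmem119 and Siglech, did not pass in either fit. Without 1 library the call did not hold for Csf1r without 18mo control 2 (adjusted p = 0.0546) as given, for Ctss without 3mo control 1 (adjusted p = 0.102) and without 18mo control 1 (adjusted p = 0.0775) and without 18mo control 2 (adjusted p = 0.101) as given.

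Complement genes, which tag cells and synapses for removal, followed the same direction. The lists overlap, since C1qa, C1qb and C1qc are also microglia markers and Clu is also on the Müller glia list. Of 14 tested, 9 rose and 0 fell as given and 7 rose in both fits, with a median log2 fold change of 1.23 and 1.11 in the 2 fits. C4b, a component of the classical pathway, stood at 0.576 and 0.544 FPKM at 3mo and 5.22 and 7.34 FPKM at 18mo, a log2 fold change of 2.66 ± 0.23 (SE; adjusted p = 0.00255) as given and 2.22 ± 0.25 (adjusted p = 0.00156) with the length trend removed. C1qa, a chain of the recognition molecule C1q, stood at 5.17 and 8.09 FPKM at 3mo and 22.9 and 25.6 FPKM at 18mo, with log2 fold changes of 1.83 and 2.502. C1qb, C1qc, Serping1, Itgb2 and Clu completed the genes that rose in both fits. Clu, clusterin, a secreted chaperone made by Müller glia among other cells, stood at 165 and 233 FPKM at 3mo and 456 and 477 FPKM at 18mo, a log2 fold change of 1.25 ± 0.35 (SE; adjusted p = 0.0216) as given and 1.33 ± 0.26 (adjusted p = 0.00549) with the length trend removed. Leave-one-out counts of the list were 6, 5, 3 and 2 as given and 7, 5, 6 and 6 with the length trend removed. With a library left out the threshold was missed for Clu without 3mo control 1 (adjusted p = 0.0545) and without 18mo control 1 (adjusted p = 0.0953) and without 18mo control 2 (adjusted p = 0.114) as given. With 1 library left out at a time, the call ended in 4 of the 4 cases for Serping1 and Itgb2, 3 for C1qb and 1 for C1qc as given (adjusted p up to 0.12). It ended in 4 of the 4 cases for Itgb2 and 3 for Serping1 with the length trend removed (adjusted p up to 0.147). Taking out GC too, Itgb2 (adjusted p = 0.0801) was not called.

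Class I major histocompatibility genes present peptides to T cells. Of 14 class I and antigen processing genes tested, 6 rose as given, 10 with the length trend removed and 9 with length and GC removed, and 0 fell. H2-D1 stood at 12.3 and 11.7 FPKM at 3mo and 35.5 and 48.2 FPKM at 18mo, a log2 fold change of 1.74 ± 0.28 (SE; adjusted p = 0.0055) as given and 1.88 ± 0.25 (adjusted p = 0.00202) with the length trend removed. H2-Q4, a nonclassical gene, stood at 1.201 and 0.974 FPKM at 3mo and 7.89 and 9.05 FPKM at 18mo, and the peptide transporter subunit Tap2 at 1.46 and 1.16 FPKM at 3mo and 7.104 and 7.23 FPKM at 18mo. Each was higher in both 18mo controls, with log2 fold changes of 2.499 ± 0.24 and 2.09 ± 0.18 as given. Genes of this family share sequence, so reads between its members are uncertain. Counts with each library left out were 7, 7, 7 and 5 as given and 9, 8, 9 and 7 with the length trend removed. Of 31 interferon response genes 4 rose as given and 2 in both fits, close to the background of 11.7% and 5.56%, and 5 rose with the length trend removed against a background of 7.42%. The rises of this list with each library left out numbered 7, 1, 1 and 1 as given and 5, 2, 4 and 2 with the length trend removed. Irf7, a master regulator of the type I interferon response, stood at 3.70 and 4.59 FPKM at 3mo and 17.2 and 17.3 FPKM at 18mo, a log2 fold change of 1.94 ± 0.20 (SE; adjusted p = 0.00289) as given and 2.06 ± 0.16 (adjusted p = 0.000907) with the length trend removed, whereas Ifit3, an interferon-induced antiviral gene, stood at 13.7 and 13.6 FPKM at 3mo and 9.14 and 9.804 FPKM at 18mo with a log2 fold change of -0.51 ± 0.33.

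Müller glia markers and gliosis genes rose in part. Of 18 Müller glia markers 9 rose and 2 fell as given, and 7 rose and 1 fell in both fits. Their median log2 fold change was 0.96 as given and 1.03 with the length trend removed. Over all features 11.7% rose and 11.8% fell as given, and 5.56% and 6.43% in both fits. With length and GC removed 8 of the markers rose and 0 fell. Glul, glutamine synthetase, stood at 272 and 309 FPKM at 3mo and 867 and 667 FPKM at 18mo, a log2 fold change of 1.39 ± 0.27 (SE; adjusted p = 0.0077) as given and 1.18 ± 0.21 (adjusted p = 0.00404) with the length trend removed. The transcription factors Hes1, a target of Notch signalling, and Sox2 stood at 5.57 and 6.88 FPKM at 3mo and 39.2 and 19.4 FPKM at 18mo and at 3.79 and 2.86 FPKM at 3mo and 17.1 and 11.9 FPKM at 18mo. Both rose in both fits, by 2.07 and 1.96 on the log2 scale as given. The marker that fell in both fits was Spc25. Leave-one-out counts of rises were 8, 9, 4 and 8 as given and 7, 9, 6 and 9 with the length trend removed. The call was lost for Glul without 18mo control 1 (adjusted p = 0.0645) as given, and without 18mo control 1 (log2 fold change 0.96) with the length trend removed. When each library was left out in turn, the call was lost in 1 of the 4 cases for Spc25 as given (adjusted p up to 0.0653). The loss came in 2 of the 4 cases for Spc25 with the length trend removed (adjusted p up to 0.0663). With GC removed as well as length, Spc25 (adjusted p = 0.171) was not called.

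Of 15 gliosis genes 9 rose and 0 fell as given and 6 rose in both fits. Edn2, the endothelin made by stressed photoreceptors, stood at 0.877 and 1.18 FPKM at 3mo and 10.1 and 11.7 FPKM at 18mo, a log2 fold change of 2.902 ± 0.404 (SE; adjusted p = 0.00469) as given and 3.26 ± 0.38 (adjusted p = 0.00156) with the length trend removed. Gfap, the intermediate filament of astrocytes and reactive Müller glia, stood at 2.13 and 2.097 FPKM at 3mo and 4.87 and 4.39 FPKM at 18mo, and did not pass, with a log2 fold change of 0.97 ± 0.4 (adjusted p = 0.0762) as given and 0.77 (adjusted p = 0.15) with the length trend removed. In the treated retinas Gfap stood at 24.96 and 31.3 FPKM at 3mo and 31.4 and 87.5 FPKM at 18mo. S1pr3, Fgf2, Stat3, Socs3 and Cebpd also rose in both fits. The leave-one-out counts of rises were 7, 6, 4 and 5 as given and 6, 5, 5 and 5 with the length trend removed. With 1 library left out at a time, the call ended in 4 of the 4 cases for Fgf2 and 2 for Cebpd as given (adjusted p up to 0.173). It ended in 2 of the 4 cases for Fgf2 and Cebpd with the length trend removed (adjusted p up to 0.103). Taking out GC too, Stat3 (log2 fold change 0.99) was not called.

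Vascular markers rose together. Of 16 endothelial markers 13 rose and 0 fell as given, 11 rose in both fits and 12 with length and GC removed, with median log2 fold changes of 1.65, 1.61 and 1.505. Their summed level was 27.3 and 32.6 FPKM at 3mo and 103 and 111 FPKM at 18mo. Leave-one-out counts were 13, 12, 12 and 10 as given and 13, 12, 12 and 13 with the length trend removed. Cldn5 (NM_013805, chromosome 16, 18776847 to 18778262), the claudin of endothelial tight junctions, stood at 0.988 and 0.622 FPKM at 3mo and 11.6 and 11.04 FPKM at 18mo, a log2 fold change of 3.19 ± 0.26 (SE; adjusted p = 0.00255) as given and 3.58 ± 0.29 (adjusted p = 0.000907) with the length trend removed. Kdr and Flt1, the receptors of vascular endothelial growth factor, stood at 7.32 and 5.54 FPKM at 3mo and 30.2 and 28.4 FPKM at 18mo and at 2.46 and 1.64 FPKM at 3mo and 14.5 and 15.4 FPKM at 18mo. Their log2 fold changes were 2.11 ± 0.20 and 2.61 ± 0.20 as given and 1.65 and 2.12 with the length trend removed, and in each the libraries of an age lay close together. In the 4xIOP controls Kdr stood at 14.7 and 19.1 FPKM and Cldn5 at 3.38 and 5.62 FPKM.

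Of 9 smooth muscle and pericyte markers 4 rose as given, 4 of them in both fits, and 0 fell. The pericyte gene Rgs5 stood at 5.901 and 5.57 FPKM at 3mo and 25.1 and 30.3 FPKM at 18mo, a log2 fold change of 2.17 ± 0.23 (SE; adjusted p = 0.00317) as given and 1.85 ± 0.20 (adjusted p = 0.00156) with the length trend removed. Pdgfrb, the receptor that recruits pericytes, stood at 0.523 and 0.443 FPKM at 3mo and 3.38 and 3.04 FPKM at 18mo, with log2 fold changes of 1.91 and 1.47. Blood was present to an uneven degree beside the vessels. The summed level of 7 blood markers was 28.8 and 418 FPKM at 3mo and 243 and 653 FPKM at 18mo, with Hba-a1, a globin with a near-identical copy, at 5.17 and 53.4 FPKM at 3mo and 44.8 and 98.7 FPKM at 18mo. That sum was higher in 3mo control 2 than in 18mo control 1, unlike the endothelial sum, and its part in the immune and vascular results was not tested.

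Retinal ganglion cell markers fell. Of 24 tested, 15 fell and 0 rose as given, 15 fell in both fits, 19 with the length trend removed and 18 with length and GC removed. The median log2 fold changes were -1.38, -1.49 and -1.76. The summed level was 582 and 1115 FPKM at 3mo and 77.6 and 159 FPKM at 18mo, so 18mo control 1 was the lower of its age. Counts with each library left out were 10, 8, 7 and 11 as given and 11, 9, 9 and 17 with the length trend removed.

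Pvalb (NM_013645, chromosome 15, 78191112 to 78206400), a calcium-binding protein, stood at 22.5 and 77.4 FPKM at 3mo and 0.312 and 0.652 FPKM at 18mo, a log2 fold change of -5.45 ± 0.49 (SE; adjusted p = 0.00255) as given and -4.68 ± 0.33 (adjusted p = 0.000907) with the length trend removed. Sncg (NM_011430, chromosome 14, 34370274 to 34374669), gamma-synuclein, stood at 150.5 and 443 FPKM at 3mo and 5.98 and 16.1 FPKM at 18mo, a log2 fold change of -4.64 ± 0.76 (SE; adjusted p = 0.00555) as given and -3.71 ± 0.67 (adjusted p = 0.0042) with the length trend removed. Nefl, the neurofilament light chain of axons, stood at 80.01 and 89.9 FPKM at 3mo and 6.30 and 15.5 FPKM at 18mo, a log2 fold change of -3.03 ± 0.47 (SE; adjusted p = 0.00524) as given and -3.27 ± 0.44 (adjusted p = 0.00194) with the length trend removed. The 3mo controls lay far apart for Pvalb and Sncg, whose transcripts have 951 and 725 bases, and were close for Nefl with 3375 bases. Penk (NM_001348209, chromosome 4, 4133536 to 4138815), the enkephalin precursor, fell from 17.3 and 32.8 to 0.761 and 1.39 FPKM, and Gap43, a growth cone protein, from 16.6 and 31.1 to 3.59 and 5.69 FPKM. Rbpms, Thy1, Slc17a6, Tubb3, Stmn2, Nrn1 and Nefh also fell in both fits, and Pou4f2, Nefm, Eomes and Chrna6 fell with the length trend removed. Opn4, the melanopsin of intrinsically photosensitive ganglion cells, and the transcription factors Pou4f1 and Isl2 were among those that did not pass in either fit. In the 4xIOP controls Pvalb stood at 23.8 and 7.999 FPKM, Sncg at 69.7 and 24.1 FPKM and Nefl at 109 and 70.1 FPKM. When each library was left out in turn, the call was lost in 4 of the 4 cases for Tubb3, 3 for Thy1 and Nefh and 2 for Rbpms, Slc17a6 and Stmn2 as given (adjusted p up to 0.191). The loss came in 4 of the 4 cases for Tubb3 and Chrna6, 3 for Thy1, Pou4f2 and Nefm, 2 for Rbpms and Slc17a6 and 1 for Stmn2 and Eomes with the length trend removed (adjusted p up to 0.265).

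Spp1, osteopontin, is both a marker of alpha ganglion cells and a gene of disease-associated microglia. It stood at 18.3 and 37.98 FPKM at 3mo and 4.35 and 1.41 FPKM at 18mo, a log2 fold change of -3.15 ± 0.66 (SE; adjusted p = 0.00906) as given and -2.75 ± 0.61 (adjusted p = 0.0084) with the length trend removed. Axl, a receptor of the same microglial state, stood at 1.29 and 0.921 FPKM at 3mo and 4.01 and 4.85 FPKM at 18mo and rose in both fits, with log2 fold changes of 1.62 and 1.23. Of 16 disease-associated microglia genes 3 rose and 2 fell as given, beside backgrounds of 11.7% and 11.8%, and the leave-one-out counts of rises were 2, 4, 2 and 2 as given and 4, 7, 4 and 4 with the length trend removed, and of falls 2, 0, 1 and 0 as given and 3, 0, 2 and 1 with the length trend removed. Calls were lost for Spp1 without 3mo control 2 (adjusted p = 0.0559) and without 18mo control 2 (adjusted p = 0.0586) as given, and without 3mo control 2 (adjusted p = 0.0664) and without 18mo control 2 (adjusted p = 0.0554) with the length trend removed. With GC removed as well as length, Axl (log2 fold change 0.87) was not called.

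Amacrine cell markers fell in part. Of 19 tested, 6 fell and 0 rose as given, the same 6 fell in both fits and 5 with length and GC removed. Vip, the vasoactive intestinal peptide of a small amacrine class, stood at 6.699 and 11.1 FPKM at 3mo and 0.256 and 0.225 FPKM at 18mo, a log2 fold change of -3.62 ± 0.38 (SE; adjusted p = 0.00298) as given and -3.32 ± 0.35 (adjusted p = 0.00156) with the length trend removed. Chat and Slc5a7, which make acetylcholine and take up choline in starburst amacrine cells, Calb2, Neurod6 and Ppp1r17 were the other genes that fell. Calb2, calretinin, stood at 100.4 and 166 FPKM at 3mo and 8.64 and 33.5 FPKM at 18mo, a log2 fold change of -2.88 ± 0.93 (SE; adjusted p = 0.0349) as given and -2.504 ± 0.895 (adjusted p = 0.0492) with the length trend removed, with the 18mo controls far apart. Pax6, a transcription factor of amacrine and ganglion cells, stood at 46.7 and 45.0 FPKM at 3mo and 29.1 and 34.4 FPKM at 18mo, with log2 fold changes of -0.53 ± 0.29 and -0.77 that did not pass. Leaving out each library in turn gave 5, 3, 2 and 5 as given and 5, 4, 5 and 6 with the length trend removed. Without 1 library the call did not hold for Calb2 without 3mo control 1 (adjusted p = 0.0663) and without 3mo control 2 (adjusted p = 0.17) and without 18mo control 1 (adjusted p = 0.182) and without 18mo control 2 (adjusted p = 0.0514) as given, and without 3mo control 1 (adjusted p = 0.115) and without 3mo control 2 (adjusted p = 0.196) and without 18mo control 1 (adjusted p = 0.258) with the length trend removed. With 1 library left out at a time, the call ended in 2 of the 4 cases for Chat and Ppp1r17 and 1 for Neurod6 as given (adjusted p up to 0.0801). It ended in 1 of the 4 cases for Ppp1r17 with the length trend removed (adjusted p up to 0.0607). Taking out GC too, Calb2 (adjusted p = 0.0638) was not called.

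Receptors of the inner retina were mixed. Of 19 GABA and glycine receptor subunits 7 fell and 0 rose as given, 7 fell in both fits and 2 fell with length and GC removed. The leave-one-out counts were 3, 0, 0 and 1 as given and 7, 1, 4 and 8 with the length trend removed, so the count as given rests on having all 4 libraries. Gabrg1, the gamma-1 subunit, stood at 1.89 and 3.38 FPKM at 3mo and 0.153 and 0.480 FPKM at 18mo, a log2 fold change of -1.93 ± 0.41 (SE; adjusted p = 0.00923) as given and -2.32 ± 0.42 (adjusted p = 0.0042) with the length trend removed. Of 16 glutamate receptor subunits 4 rose and 2 fell as given, beside backgrounds of 11.7% and 11.8%. In both fits 1 rose and 2 fell, beside 5.56% and 6.43%, and with length and GC removed 0 rose and 2 fell. With each library left out the rises numbered 5, 2, 5 and 0 as given and 0, 1, 1 and 0 with the length trend removed, and the falls 0, 0, 0 and 0 as given and 2, 2, 2 and 3 with the length trend removed. The AMPA receptor subunit Gria4 stood at 13.1 and 10.3 FPKM at 3mo and 3.34 and 5.51 FPKM at 18mo, with log2 fold changes of -1.34 ± 0.39 and -1.78. With a library left out the threshold was missed for Gabrg1 without 3mo control 2 (adjusted p = 0.0543) and without 18mo control 1 (adjusted p = 0.0567) as given, for Gria4 without 3mo control 1 (adjusted p = 0.0917) and without 3mo control 2 (adjusted p = 0.0681) and without 18mo control 1 (adjusted p = 0.139) and without 18mo control 2 (adjusted p = 0.0557) as given.

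Bipolar cell markers rose in part. Of 19 tested, 12 rose and 0 fell as given, 9 rose in both fits and 5 with length and GC removed, with median log2 fold changes of 1.19, 1.01 and 0.69. Gpr179, an orphan receptor of the ON bipolar signalling complex with a transcript of 9281 bases, stood at 7.82 and 3.96 FPKM at 3mo and 18.3 and 25.9 FPKM at 18mo, with log2 fold changes of 1.87, 1.35 and 0.804 in the 3 fits. Grm6 and Trpm1, the glutamate receptor and cation channel of the same complex, rose in both fits. The 18mo controls lay above the 3mo controls for 14 markers and below them for 3, against 45.5% and 33.1% of all features. Gng13, a G protein gamma subunit and the most abundant marker of the list, stood at 306 and 988 FPKM at 3mo and 245 and 294 FPKM at 18mo, with a log2 fold change of -1.03 ± 0.55 (adjusted p = 0.154) as given, and its direction with the length trend removed turned with the setting. The summed level of the list was 741 and 1608 FPKM at 3mo and 903 and 1102 FPKM at 18mo, so the ages overlapped in it. The median transcript length of the list was 3561 bases against 2783 bases over all features. Leave-one-out counts were 12, 7, 10 and 6 as given and 8, 7, 10 and 6 with the length trend removed. When each library was left out in turn, the call was lost in 1 of the 4 cases for Trpm1 with the length trend removed (through the size of the change). Taking out GC too, Grm6 (log2 fold change 0.99) and Trpm1 (log2 fold change 0.93) were not called.

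Rod genes fell in part. Of 30 rod genes 6 fell and 1 rose as given and 2 fell in both fits, with a median log2 fold change of -0.35 and -0.54. The background for falls was 11.8% as given and 6.43% in both fits. The rod sum was 44554 and 59987 FPKM at 3mo and 32398 and 28501 FPKM at 18mo without overlap, and 18 rod genes lay lower at 18mo without overlap, against 33.1% of all features. Sag, the rod arrestin, stood at 4304 and 7990.3 FPKM at 3mo and 2236 and 2195 FPKM at 18mo, a log2 fold change of -1.404 ± 0.46 (SE; adjusted p = 0.0379) as given and -1.25 ± 0.30 (adjusted p = 0.0113) with the length trend removed. With quantile normalization the log2 fold change of Sag turned to 0.041 as given and 0.205 with the length trend removed. Gngt1, the gamma subunit of rod transducin with a transcript of 962 bases, stood at 4310.1 and 9974 FPKM at 3mo and 1505 and 1433 FPKM at 18mo, a log2 fold change of -2.16 ± 0.48 (SE; adjusted p = 0.0106) as given and -1.39 ± 0.26 (adjusted p = 0.00476) with the length trend removed, and at -0.37 (adjusted p = 0.304) with GC removed as well. Nrl, the rod-determining transcription factor, stood at 542 and 685 FPKM at 3mo and 391 and 312 FPKM at 18mo with a log2 fold change of -0.803 ± 0.25, under the size required. Of 13 cone genes 3 rose as given, 0 in both fits and 2 with length and GC removed, among them the phosphodiesterase subunit Pde6c at 46.97 and 41.1 FPKM at 3mo and 89.2 and 108 FPKM at 18mo, with log2 fold changes of 1.15, 0.94 and 1.05. The cone sum of 1344 and 2266 FPKM at 3mo and 1596 and 1972 FPKM at 18mo overlapped between the ages. Of the 13 cone genes 5 lay higher at 18mo without overlap and 1 lower, against 45.5% and 33.1% of all features. Counts with each library left out were 6, 2, 1 and 0 as given and 5, 3, 6 and 1 with the length trend removed for rod genes that fell and 2, 1, 2 and 0 as given and 2, 0, 4 and 0 with the length trend removed for cone genes that rose. The call was lost for Gngt1 without 18mo control 1 (adjusted p = 0.0698) and without 18mo control 2 (adjusted p = 0.08) as given, for Pde6c without 18mo control 2 (adjusted p = 0.076) as given, for Sag without 3mo control 2 (adjusted p = 0.0764) and without 18mo control 1 (adjusted p = 0.18) and without 18mo control 2 (adjusted p = 0.194) as given, and without 3mo control 2 (log2 fold change -0.92) and without 18mo control 1 (adjusted p = 0.0579) and without 18mo control 2 (adjusted p = 0.067) with the length trend removed.

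Markers of the pigment epithelium, which lies outside the neural retina, were among the largest falls. Of 8 tested, 6 fell and 0 rose as given, 6 fell in both fits, and the leave-one-out counts were 6, 6, 6 and 6 as given and 6, 7, 6 and 6 with the length trend removed. Their summed level was 173 and 208 FPKM at 3mo and 10.6 and 5.52 FPKM at 18mo. Rpe65 (NM_029987, chromosome 3, 159599181 to 159625307), the isomerase of the visual cycle, stood at 17.6 and 18.2 FPKM at 3mo and 0.462 and 0.176 FPKM at 18mo, a log2 fold change of -4.51 ± 0.496 (SE; adjusted p = 0.00338) as given and -4.45 ± 0.46 (adjusted p = 0.00156) with the length trend removed. Ttr (NM_013697, chromosome 18, 20665250 to 20674326), transthyretin, which carries retinol-binding protein and thyroid hormone, stood at 109 and 135 FPKM at 3mo and 4.98 and 1.44 FPKM at 18mo, a log2 fold change of -5.22 ± 0.67 (SE; adjusted p = 0.00469) as given and -4.66 ± 0.63 (adjusted p = 0.00197) with the length trend removed. Rgr, a retinal G protein-coupled receptor, and Rdh5, a retinol dehydrogenase, stood at 23.2 and 30.4 FPKM at 3mo and 1.52 and 0.794 FPKM at 18mo and at 12.2 and 15.6 FPKM at 3mo and 0.961 and 0.611 FPKM at 18mo. In the 3mo IOP retinas Rpe65 stood at 20.5 and 5.59 FPKM and in the 4xIOP controls at 2.38 and 5.29 FPKM, so its level varied between groups of younger eyes too.

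Melanin pigment genes fell as well, 6 of 6 in both fits and 4 with length and GC removed, from a sum of 71.3 and 20.1 FPKM to 5.197 and 0.195 FPKM, with leave-one-out counts of 4, 6, 4 and 1 as given and 3, 6, 6 and 3 with the length trend removed. Dct (NM_010024, chromosome 14, 118012790 to 118052246), dopachrome tautomerase, stood at 34.6 and 8.08 FPKM at 3mo and 1.701 and 0 FPKM at 18mo, a log2 fold change of -4.05 ± 0.81 (SE; adjusted p = 0.00824) as given and -4.19 ± 0.79 (adjusted p = 0.00493) with the length trend removed. Genes of the eye surface were uneven between the 3mo controls. The sum of 3 corneal epithelium markers was 4.49, 44.8, 4.84 and 0.104 FPKM in 3mo control 1, 3mo control 2, 18mo control 1 and 18mo control 2. Psca, a surface protein of epithelia, had 131 and 981 reads at 3mo and 0 and 2 at 18mo, at least 178.8-fold lower at 18mo. Lypd2, a related surface protein, stood at 2.37 and 67.5 FPKM at 3mo and 0.468 and 0 FPKM at 18mo, a log2 fold change of -4.33 ± 1.19 (SE; adjusted p = 0.0205) as given and -3.297 ± 0.96 (adjusted p = 0.0234) with the length trend removed. The sum of 7 lens markers was 47.8, 72.8, 47.8 and 39.3 FPKM. The ages overlapped in the corneal sum, and the count of corneal markers that fell was 2 of 3 in both fits, with leave-one-out counts of 3, 0, 1 and 0 as given and 3, 0, 2 and 0 with the length trend removed. Pigment epithelium and melanin markers were lower at 18mo together with the neuronal falls, and their part in the falls was not tested. Calls were lost for Dct without 18mo control 2 (adjusted p = 0.0511) as given, for Lypd2 without 18mo control 1 (adjusted p = 0.0579) and without 18mo control 2 (adjusted p = 0.0983) as given, and without 3mo control 2 (adjusted p = 0.0549) and without 18mo control 1 (adjusted p = 0.0526) and without 18mo control 2 (adjusted p = 0.115) with the length trend removed.

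Other genes with large falls are known from several tissues. Ptgds (NM_008963, chromosome 2, 25466712 to 25469749), prostaglandin D synthase, stood at 237 and 269.7 FPKM at 3mo and 18.3 and 12.6 FPKM at 18mo, a log2 fold change of -4.01 ± 0.36 (SE; adjusted p = 0.00255) as given and -3.12 ± 0.33 (adjusted p = 0.00156) with the length trend removed. Gsto1 (NM_010362, chromosome 19, 47854973 to 47864788), a glutathione transferase, stood at 37.9 and 131 FPKM at 3mo and 2.15 and 3.82 FPKM at 18mo, a log2 fold change of -4.39 ± 0.84 (SE; adjusted p = 0.00738) as given and -3.79 ± 0.71 (adjusted p = 0.00476) with the length trend removed. Ctxn3, cortexin 3, fell from 6.13 and 16.3 to 0.140 and 0.146 FPKM, with log2 fold changes of -4.04 and -3.69. In the treated retinas Ptgds stood at 915 and 453 FPKM at 3mo and 24.95 and 16.5 FPKM at 18mo, and in the 4xIOP controls at 32.1 and 37.9 FPKM. 

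Short housekeeping transcripts fell as given and less so with the length trend removed. Of 85 cytosolic ribosomal protein genes, which build the ribosome and have a median length of 715 bases, 71 fell as given, 42 with the length trend removed and 45 with length and GC removed, and 0 rose. Their leave-one-out counts were 79, 55, 48 and 37 as given and 55, 27, 46 and 39 with the length trend removed, and their median log2 fold changes were -1.86, -0.997 and -1.06 in the 3 fits. Rplp1, an acidic stalk protein, stood at 775 and 2048 FPKM at 3mo and 236 and 232 FPKM at 18mo, a log2 fold change of -2.43 ± 0.43 (SE; adjusted p = 0.00652) as given and -1.39 ± 0.20 (adjusted p = 0.0023) with the length trend removed. Rpl39 stood at 102 and 383 FPKM at 3mo and 31.3 and 24.4 FPKM at 18mo, with log2 fold changes of -2.82 and -1.79. In these genes 3mo control 2 lay well above 3mo control 1, a gap between libraries of the same age. Many of them have processed pseudogenes, so that their counts are uncertain.

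Of 38 subunits of respiratory complex I, the first proton pump of mitochondria, 30 fell and 1 rose as given, and 17 fell and 1 rose in both fits. Leave-one-out counts of falls were 34, 22, 20 and 13 as given and 24, 4, 17 and 18 with the length trend removed. Ndufa4, which is now known as a subunit of complex IV and carries the older name, stood at 624 and 1856 FPKM at 3mo and 218 and 213 FPKM at 18mo, a log2 fold change of -2.32 ± 0.45 (SE; adjusted p = 0.00778) as given and -1.28 ± 0.22 (adjusted p = 0.0038) with the length trend removed. The gene that rose was Ndufa4l2, a hypoxia-induced paralogue. Of 46 subunits of complexes II to V 34 fell as given and 20 in both fits, with leave-one-out counts of 36, 27, 21 and 13 as given and 23, 11, 19 and 19 with the length trend removed. Cox8b, a muscle form of a complex IV subunit, stood at 5.17 and 7.87 FPKM at 3mo and 0.254 and 0.119 FPKM at 18mo, a log2 fold change of -3.33 ± 0.31 (SE; adjusted p = 0.00255) as given and -2.33 ± 0.27 (adjusted p = 0.00156) with the length trend removed. Without 1 library the call did not hold for Ndufa4 without 18mo control 2 (adjusted p = 0.0531) as given, and without 3mo control 2 (log2 fold change -0.95) with the length trend removed. With 1 library left out at a time, the call ended in 1 of the 4 cases for Ndufa4l2 as given (adjusted p up to 0.0506). With GC removed as well as length, Ndufa4 (log2 fold change -0.72) was not called.

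Of 77 mitochondrial ribosomal protein genes 43 fell as given, 13 in both fits and 10 with length and GC removed, with leave-one-out counts of 50, 20, 18 and 14 as given and 29, 8, 15 and 13 with the length trend removed. Of 34 proteasome subunits the figures were 23, 11 and 7, with leave-one-out counts of 27, 14, 11 and 9 as given and 16, 3, 11 and 9 with the length trend removed. Psma5, an alpha subunit of the core particle, stood at 18.1 and 49.6 FPKM at 3mo and 6.24 and 5.88 FPKM at 18mo, a log2 fold change of -2.22 ± 0.40 (SE; adjusted p = 0.00661) as given and -1.65 ± 0.26 (adjusted p = 0.00291) with the length trend removed. Antioxidant genes fell in part, 12 of 26 as given, 5 in both fits and 4 with length and GC removed, with leave-one-out counts of 12, 6, 5 and 3 as given and 9, 4, 5 and 5 with the length trend removed. Gpx3, the secreted glutathione peroxidase, stood at 33.1 and 63.2 FPKM at 3mo and 6.46 and 4.02 FPKM at 18mo, a log2 fold change of -3.04 ± 0.32 (SE; adjusted p = 0.00302) as given and -2.74 ± 0.25 (adjusted p = 0.00133) with the length trend removed. Txn1, thioredoxin, fell from 24.9 and 75.4 to 10.2 and 7.96 FPKM, and Sod1, cytosolic superoxide dismutase, from 175 and 462 to 93.5 and 90.2 FPKM as given, with log2 fold changes of -1.504 and -0.64 with the length trend removed, the second under the size required. With a library left out the threshold was missed for Sod1 without 3mo control 2 (log2 fold change -0.93) and without 18mo control 1 (adjusted p = 0.0665) and without 18mo control 2 (adjusted p = 0.0765) as given, for Txn1 without 18mo control 2 (adjusted p = 0.0531) as given.

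**Figure D5:**
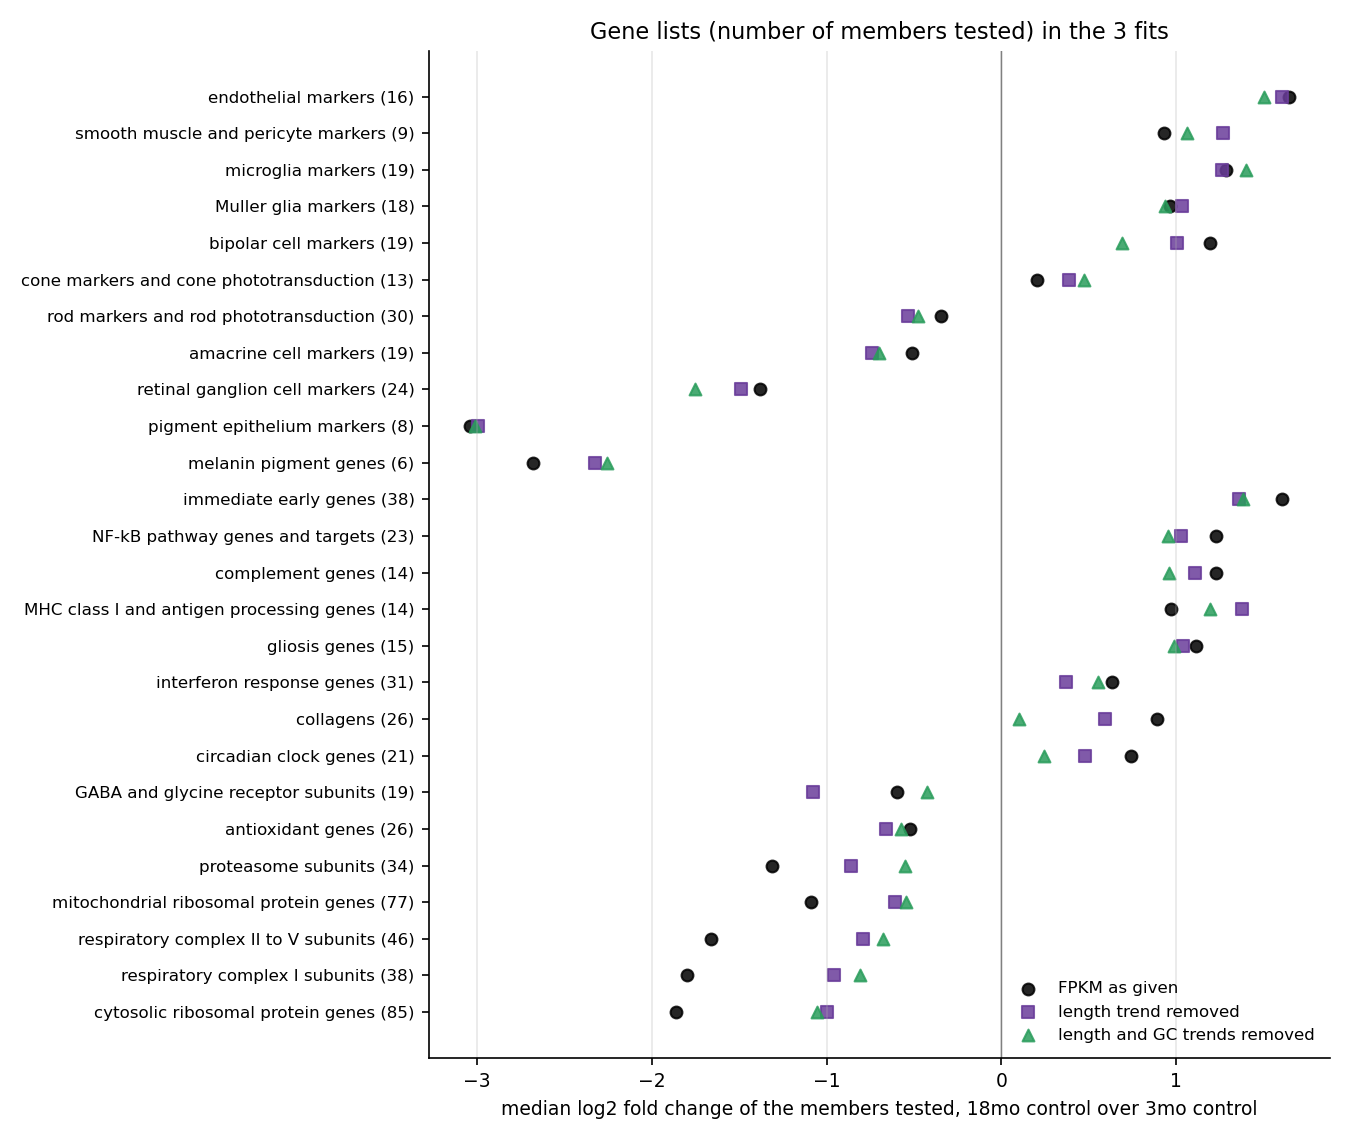
Each row is a gene list with its number of members tested, and the points give the median log2 fold change of 18mo control over 3mo control as given, with the length trend removed and with length and GC trends removed. Cytosolic ribosomal protein genes move from -1.86 to -1.06 between the first and last fit and collagens from 0.89 to 0.10, while endothelial markers stay at 1.65 and 1.505.

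Collagens have long transcripts, and the count that rose depended on the fit. Of 26 collagens, with a median length of 5848 bases, 12 rose and 2 fell as given. With the length trend removed 6 rose and 3 fell, and with length and GC removed 1 rose and 3 fell. In the same order 11.7%, 7.42% and 4.99% of all features rose and 11.8%, 8.94% and 4.82% fell. Col2a1, which encodes the fibrillar collagen of vitreous and cartilage, stood at 3.79 and 2.03 FPKM at 3mo and 14.7 and 12.5 FPKM at 18mo, a log2 fold change of 2.09 ± 0.25 (SE; adjusted p = 0.00403) as given and 1.69 ± 0.18 (adjusted p = 0.00156) with the length trend removed. Of 14 other matrix genes 3 rose and 1 fell as given and in both fits, beside backgrounds for falls of 11.8% and 6.43%, with median log2 fold changes of 0.32 as given and -0.01 with the length trend removed. The falls with each library left out numbered 1, 0, 0 and 0 as given and 1, 0, 0 and 2 with the length trend removed, and the rises 3, 3, 3 and 2 as given and 3, 3, 3 and 3 with the length trend removed. Fn1, fibronectin, stood at 1.15 and 0.720 FPKM at 3mo and 4.88 and 6.57 FPKM at 18mo, a log2 fold change of 2.12 ± 0.29 (SE; adjusted p = 0.00469) as given and 1.61 ± 0.29 (adjusted p = 0.0041) with the length trend removed. Of 12 matrix proteases and inhibitors 4 rose as given and 3 in both fits, and 0 fell. Adamts1, a protease of proteoglycans, stood at 1.05 and 1.001 FPKM at 3mo and 12.8 and 9.29 FPKM at 18mo, a log2 fold change of 2.905 ± 0.37 (SE; adjusted p = 0.00469) as given and 2.503 ± 0.40 (adjusted p = 0.00293) with the length trend removed. Timp2, an inhibitor of matrix proteases, stood at 7.87 and 5.67 FPKM at 3mo and 21.7 and 21.7 FPKM at 18mo and Mmp14, a membrane-bound matrix protease, at 1.81 and 1.14 FPKM at 3mo and 7.14 and 6.81 FPKM at 18mo. Both rose in both fits, with log2 fold changes of 1.63 and 1.94 as given. The leave-one-out counts of collagens that rose were 14, 10, 11 and 9 as given and 6, 6, 5 and 6 with the length trend removed, and those of collagens that fell 0, 0, 0 and 0 as given and 3, 2, 3 and 2 with the length trend removed. 

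Genes of cell cycle arrest and senescence rose and fell in small numbers. Of 24 tested, 4 rose and 2 fell as given, and 4 rose and 1 fell in both fits, beside backgrounds of 11.7% for rises and 11.8% for falls as given and 5.56% and 6.43% in both fits. Cdkn1a, the inhibitor p21, stood at 0.707 and 0.571 FPKM at 3mo and 5.02 and 4.48 FPKM at 18mo, a log2 fold change of 2.21 ± 0.29 (SE; adjusted p = 0.00469) as given and 2.22 ± 0.28 (adjusted p = 0.00176) with the length trend removed. Ccng1, cyclin G1, a p53 target, stood at 51.7 and 59.5 FPKM at 3mo and 23.5 and 27.2 FPKM at 18mo, a log2 fold change of -1.12 ± 0.18 (SE; adjusted p = 0.00555) as given and -1.37 ± 0.16 (adjusted p = 0.00162) with the length trend removed. Cdkn1b, the inhibitor p27, stood at 30.9 and 39.4 FPKM at 3mo and 26.4 and 23.4 FPKM at 18mo, with a log2 fold change of -0.48 ± 0.19 that did not pass. The marker Cdkn2a was below the minimum level and not tested. Leave-one-out counts of rises were 5, 3, 4 and 2 as given and 5, 5, 6 and 4 with the length trend removed, and those of falls 5, 1, 1 and 1 as given and 2, 1, 2 and 2 with the length trend removed. Taking out GC too, Ccng1 (log2 fold change -0.73) was not called.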

How the data were processed

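RNA of whole retinas had been sequenced by the authors from poly(A)-selected, strand-specific libraries, aligned to mm10 with STAR 2.7.8a and counted over exons with HOMER, keeping 1 isoform per locus. The deposited values are FPKM per gene from the authors' tables, normalized to mapped tags. FPKM times length and a mapped total estimated for each library gave whole reads, within the rounding of the deposited values plus 0.02 reads and a share of 2e-06 of the count, for 100% of the values checked in each of the 12 libraries. In the present work log2(FPKM + 0.5) of the 8 libraries in the table that holds both ages was fitted with limma 3.58.1 (R 4.3.3; 4 groups of 2, trended eBayes), and 18mo control was tested against 3mo control by a two-sided moderated test with Benjamini-Hochberg adjustment over 13461 features, at an adjusted p of 0.05 and a log2 fold change of 1. Fold changes on this scale understate those of low genes. The second fit took out each library's natural spline (5 df) on log2 transcript length, and a variant took out GC content too, for the 13388 features with a GENCODE transcript sequence. Of the 4xIOP table, normalized separately, levels alone are used and no test was made. Simulated data with known changes of 2 and 3 on the log2 scale were also fitted. The fit as given recovered 87% and 89% of changed features with 10 false calls. The fit with the length trend removed recovered 88% and 90% with 9. Random variation was drawn independently for each library. The data for the fit as given held no length trend, and those for the second fit held the same trend in every 3mo library. The real 3mo controls differ in that trend, so these figures do not measure error in the present data.

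Samples were grouped by their labels. The replicate numbers were checked as pairs: the differences between replicates 1 and 2 correlated at -0.1209 between the 2 control groups, at -0.2893 between 3mo control and 3mo IOP and at -0.5453 between 18mo control and 18mo IOP, and the numbers were not used as a block in the results given. Members and the 58 gene lists were chosen with earlier results of these data known. Genes with values were named by rule: the 12 largest rises and 12 largest falls called in both fits, the 12 most abundant called genes, up to 4 members of each list by level and size of change, and immediate early genes called in both fits. From these, genes whose values are not printed were left out for length, and genes named without values are list members picked after their calls were seen. Alternatives were other pseudocounts (0.1 and 1), low-value filters (none, and a mean of 2 FPKM), scalings, variance models, voom on recovered reads, splines, blocks and leaving out each library. Promoter sequences and symbols come from RefSeq (GRCm38.p6). Some members of the lists are not reported here by name.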

Additional observations from a re-analysis of the deposited data

How the results depend on the processing

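Counts of features and of list members called, and the fold changes of named genes, were recomputed under 16 other settings as given and 19 with the length trend removed, and the crossed replicate pairing among them was added after seeing the data. As given, the count of higher features moved by over 1.5 times with adjusted p alone (3630) and when a library was left out (683 to 2614), and that of lower features with adjusted p alone (2640) and when a library was left out (638 to 2095). With the length trend removed the counts were 3111 higher and 3072 lower with adjusted p alone, 600 to 1482 higher and 608 to 1649 lower when a library was left out, and 645 lower with GC content removed as well. Where a left-out library leaves 1 library at an age, that library is assumed to vary like the other groups. The replicate numbers do not pair the ages, which come from different animals. With the replicate block 1569 features rose and 1551 fell as given and 1002 and 1191 with the length trend removed, and with the numbers crossed 1548 and 1521, and 995 and 1189. Direction turned in the following genes. Sag was at 0.041 and 0.205 under quantile normalization. Gng13, at -0.03 with the length trend removed, was then at 0.022 with a pseudocount of 0.1, 0.114 with a mean of at least 2 FPKM, 0.586 under quantile normalization, 0.069 with voom, 0.67 with a lowess on length and -0.44 to 0.38 when a library was left out. Npas4 was at -0.26 with length and GC trends removed. Of the 142 genes named, 121 were called as given and 78 of these kept their call under each setting, and 121 were called with the length trend removed and 87 kept it. The cause of each change was not tested. Transcripts under 3 reads in a library are beyond what this depth can measure.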

Other observations

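Genes outside the lists above also differed between the ages. Of 21 circadian clock genes 8 rose and 0 fell as given, 4 rose in both fits and 2 with length and GC removed, with leave-one-out counts of 9, 4, 5 and 4 as given and 6, 3, 4 and 4 with the length trend removed in the same order of libraries. Nr1d1, the repressor REV-ERB alpha, stood at 34.9 and 22.2 FPKM at 3mo and 74.8 and 78.8 FPKM at 18mo, a log2 fold change of 1.45 ± 0.23 (SE; adjusted p = 0.00536) as given and 1.24 ± 0.18 (adjusted p = 0.00234) with the length trend removed. Bhlhe40, another repressor of the clock, stood at 7.34 and 5.48 FPKM at 3mo and 18.5 and 16.2 FPKM at 18mo, and Per1, a core repressor, at 9.21 and 5.604 FPKM at 3mo and 17.98 and 17.7 FPKM at 18mo, with log2 fold changes of 1.38 and 1.25 as given. Dbp, an output gene, stood at 43.05 and 45.1 FPKM at 3mo and 54.9 and 68.5 FPKM at 18mo with a log2 fold change of 0.47 ± 0.33. The hour of collection is not given in the sources used here, and its part was not tested. The call was lost for Nr1d1 without 3mo control 2 (log2 fold change 0.97) with the length trend removed, for Per1 without 3mo control 2 (log2 fold change 0.92) as given. With GC removed as well as length, Nr1d1 (log2 fold change 0.81) was not called.

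Of 25 genes of cholesterol synthesis, uptake and efflux 4 fell and 1 rose as given and 2 fell in both fits, beside backgrounds of 11.8% and 6.43% for falls. The leave-one-out counts of falls were 6, 1, 2 and 2 as given and 7, 3, 3 and 6 with the length trend removed. Msmo1, a sterol oxidase, stood at 35.03 and 58.7 FPKM at 3mo and 14.7 and 15.9 FPKM at 18mo, a log2 fold change of -1.54 ± 0.24 (SE; adjusted p = 0.00549) as given and -1.48 ± 0.20 (adjusted p = 0.00193) with the length trend removed, and Fdft1, squalene synthase, at 21.97 and 30.01 FPKM at 3mo and 10.3 and 12.4 FPKM at 18mo, a log2 fold change of -1.15 ± 0.20 (SE; adjusted p = 0.00646) as given and -1.37 ± 0.20 (adjusted p = 0.00237) with the length trend removed. Of 12 neurotrophin, GDNF and CNTF family genes 3 rose and 0 fell as given, and 2 rose in both fits, with median log2 fold changes of 0.22 as given and -0.07 with the length trend removed. The 2 were Cntfr, the receptor of ciliary neurotrophic factor, which rose from 4.84 and 3.49 to 20.99 and 21.6 FPKM and Ngfr, the p75 neurotrophin receptor, from 2.71 and 1.92 to 8.19 and 10.03 FPKM, with log2 fold changes of 2.24 ± 0.24 and 1.78 ± 0.22 as given and 2.22 and 1.54 with the length trend removed. Hspa2, a chaperone of the HSP70 family, rose from 0.822 and 1.01 to 4.87 and 4.91 FPKM, and Asns, asparagine synthetase, fell from 16.2 and 27.8 to 5.57 and 7.37 FPKM, in both fits. Xist, the RNA of the inactive X chromosome, stood at 105 and 47.6 FPKM at 3mo and 149.8 and 172 FPKM at 18mo and at 0 and 0.003 FPKM in the 4xIOP controls. Its log2 fold change between the ages was 1.17 as given and 0.75 with the length trend removed, the latter not called. The labels used here do not give sex. The Y-linked genes Ddx3y, Kdm5d, Uty and Eif2s3y were listed at 0 FPKM in all 4 control libraries of the 2 ages and between 5.29 and 27.6 FPKM in the 4xIOP controls, so these transcripts separate the 4xIOP controls from both ages and do not separate the ages. Calls were lost for Fdft1 without 3mo control 2 (log2 fold change -0.93) as given, for Xist without 3mo control 2 (adjusted p = 0.155) and without 18mo control 1 (adjusted p = 0.097) and without 18mo control 2 (adjusted p = 0.147) as given.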
